A study of Mus musculus with 9 samples.

Results

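Macrophage and complement C1q genes were followed in the mouse coronal suture, a seam of fibrous tissue where skull bones meet and grow. The 32 genes were taken by name from a table of 43644 genes: the resident macrophage genes Lyve1, Timd4 and Folr2, the 3 C1q chains, 9 macrophage identity genes, 8 scavenger, lectin and engulfment receptors, 6 Fc receptor and inflammatory sensing genes and 3 lysosomal or secreted genes. RNA came from C57BL/6 mice aged 7 months, with 3 libraries in each of 3 groups. REG mice were Twist1+/- and had suture regeneration surgery at 1 month of age, MUT mice were Twist1+/- without surgery, and WT mice were wild type without surgery. REG and MUT thus share the loss of 1 Twist1 allele, and the surgery of REG has no operated wild-type counterpart among the groups analysed here. Neither the material implanted, if any, nor the sex of the mice is given in the labels.

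Macrophages are phagocytes that depend on signalling through the receptor Csf1r, and in bone they share precursors with the bone-resorbing osteoclasts. Resident tissue macrophages are a main source of C1q, the protein that starts the classical complement pathway and marks debris for engulfment, and its 3 chains are encoded by neighbouring genes. In mouse, Lyve1, Timd4 and Folr2 mark long-lived resident macrophages in several tissues, while other members of the set, such as the Fc receptors and Cd14, take part in sensing antibody complexes and microbes. In bulk RNA, fewer cells of a type and less RNA per cell cannot be told apart.

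The MUT libraries stood apart before any gene was compared. Estimated reads came to 39377876, 30272185 and 18276494 in REG, 10894209, 2945636 and 7860273 in MUT, and 16356391, 20019712 and 19886755 in WT. Reads at the density seen over 1747 olfactory and vomeronasal receptor genes, which suture cells are not known to use, would make up 0.741%, 0.849% and 0.509% of all reads in REG, 23.2%, 7.86% and 21.0% in MUT, and 0.866%, 0.614% and 0.834% in WT. This share of reads therefore moves with the MUT group. The density itself was 20.2, 1.85 and 13.2 reads per kb in MUT, 2.33, 2.05 and 0.743 in REG, and 1.13, 0.982 and 1.32 in WT. It was thus raised in MUT replicates 1 and 3, but not in the shallow MUT replicate 2. Twist1, the gene lowered by design, was at 3.76, 9.19 and 12.2 in REG, 0.987, 8.08 and 0.548 in MUT, and 16.2, 23.3 and 23.1 in WT, in the deposited scaled values used throughout. The summed values of 10 osteoblast and suture genes, taken as markers of the labelled tissue and all detected, were 10828 to 23571 in REG, 1793, 11342 and 963 in MUT, and 17621 to 32375 in WT. MUT replicates 1 and 3 thus stood far below every other library on these markers, and 9 of the 10 genes were called lower in MUT than in WT. In the labels the library name of MUT replicate 2 follows another pattern than those of MUT replicates 1 and 3. What this marks is not given.

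Promoters were read for members that were low in MUT against both other groups, to show the stretch of DNA ahead of the C1q genes beside a macrophage lysosomal pair. The C1q genes lie together on the minus strand of chromosome 4 (GRCm38), with C1qb at chr4:136880129-136886187, C1qc at chr4:136889804-136893065 and C1qa at chr4:136895917-136898803. Each sequence is the RefSeq stretch (GRCm38.p6) of up to 250 bases ahead of the annotated start, 5′ to 3′ on the gene's strand, cut where an annotated exon begins. Capitals mark GAGGAA, the core bound by the macrophage transcription factor PU.1, or its reverse complement TTCCTC.
C1qb (chr4:136886201-136886450, minus strand): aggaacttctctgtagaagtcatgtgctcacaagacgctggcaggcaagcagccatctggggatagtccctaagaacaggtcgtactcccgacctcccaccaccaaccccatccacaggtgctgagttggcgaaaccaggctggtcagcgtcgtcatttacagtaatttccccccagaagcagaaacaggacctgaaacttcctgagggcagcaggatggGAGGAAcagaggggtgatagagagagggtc
C1qc (chr4:136893066-136893164, minus strand): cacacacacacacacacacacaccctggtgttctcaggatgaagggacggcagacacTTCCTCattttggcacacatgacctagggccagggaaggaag
Cd68 (chr11:69666171-69666420, minus strand): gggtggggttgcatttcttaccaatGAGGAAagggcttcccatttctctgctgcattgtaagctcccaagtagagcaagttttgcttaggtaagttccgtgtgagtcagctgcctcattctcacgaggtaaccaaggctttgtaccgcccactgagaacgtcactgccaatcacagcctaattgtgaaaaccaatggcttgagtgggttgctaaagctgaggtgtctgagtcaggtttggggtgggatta
Ctss (chr3:95526536-95526785, plus strand): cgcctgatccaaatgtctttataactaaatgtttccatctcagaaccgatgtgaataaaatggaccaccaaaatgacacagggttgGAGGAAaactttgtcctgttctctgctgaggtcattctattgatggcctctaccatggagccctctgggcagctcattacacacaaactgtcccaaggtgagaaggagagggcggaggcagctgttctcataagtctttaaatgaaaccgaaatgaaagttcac
An entry was found for 22 of the 32 members. GAGGAA stood on either strand within 250 bases of the start in 12 of these 22 genes, against 25.9% of the 27025 genes in the RefSeq table. Of the 10 members low in MUT against both other groups, 8 had an entry and 6 of those held the core. Such a match describes the letters and is not evidence of binding.

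As deposited, part of the macrophage genes, the C1q chains among them, were lower in MUT than in WT and higher in REG than in MUT. All 3 comparisons came from 1 limma fit on log2(value + 0.367), in which a gene is called at an adjusted p under 0.05 over the 29107 genes tested. Of the 32 members 31 were tested, and Vsig4, a complement receptor of resident macrophages, reached the minimum of 0.367 in 1 library and was not. In MUT against WT, 11 of 31 members fell (35.5%) and Marco rose, while 14.6% of all genes tested were called lower and 20.5% higher. In REG against MUT, 14 of 31 members rose (45.2%) and 0 fell, while 11.8% of all genes tested were called higher and 24.8% lower. At an unadjusted p under 0.05, 15 members were higher and 1 was lower in REG against MUT, beside 16.3% and 30.6% of all genes. On this scaling most calls over all genes ran opposite to the members, but with trimmed-mean scaling they ran the same way. There 13 members were lower and 0 higher in MUT against WT, beside 23.4% and 9.73% of all genes, and 16 were higher and 0 lower in REG against MUT, beside 25.7% and 11.3%. Both comparisons use the MUT libraries, so their values stand side by side and are not independent: the 10 members called in both were C1qa, C1qb, C1qc, Csf1r, Cd68, Laptm5, Mertk, Gpnmb, Ctss and Apoe. By the authors' deposited table, 10 of the 32 genes were lower in MUT than in WT and 12 were higher in REG than in MUT at their FDR under 0.05, beside 8.22% and 7.69% of all 43644 genes.

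**Figure D1:**
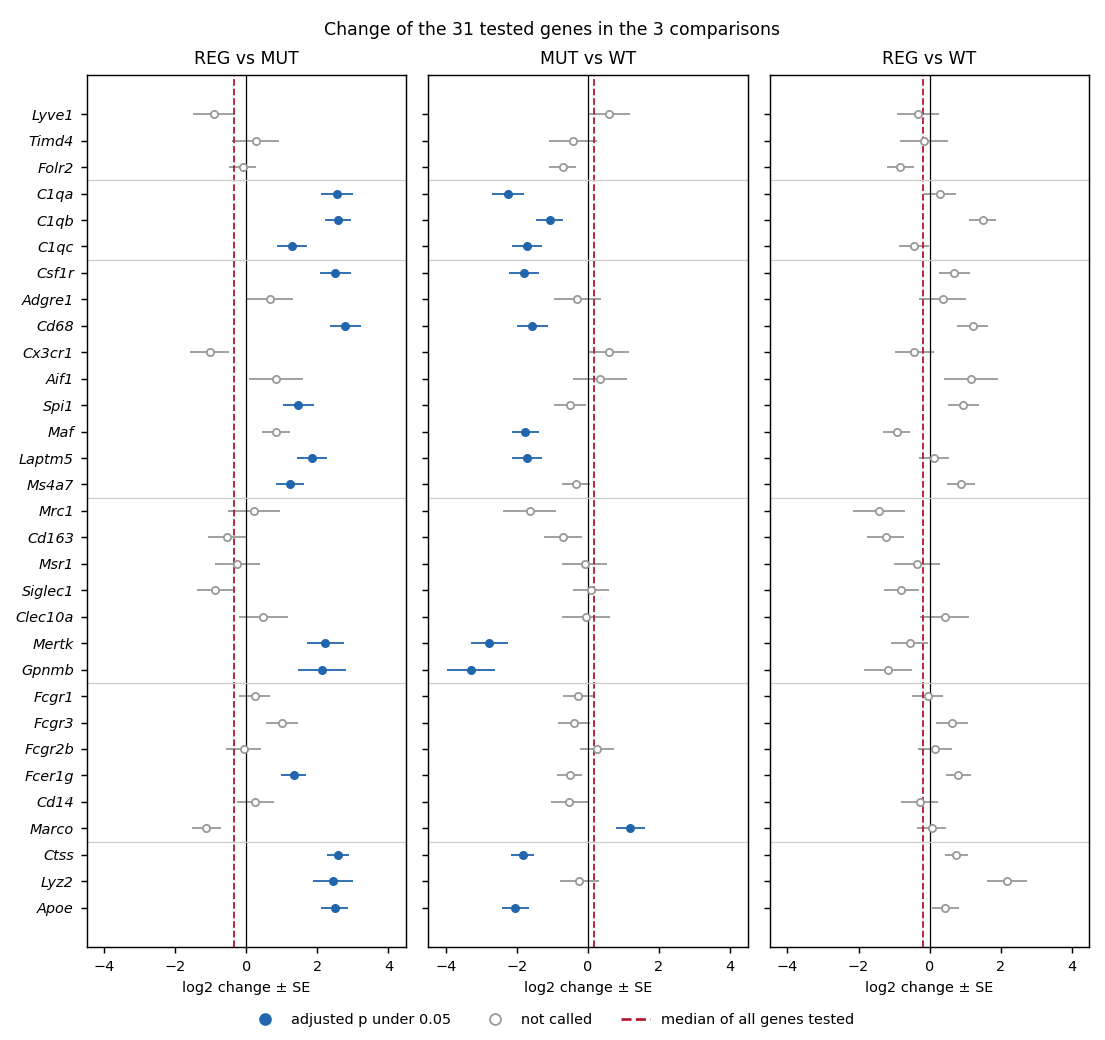
Change of the 31 tested genes on the log2(value + 0.367) scale with the standard error of the fit, in REG against MUT, MUT against WT and REG against WT, grouped by role from resident genes (top) to lysosomal and secreted genes (bottom). Filled points passed an adjusted p of 0.05 in limma (14, 12 and 0 genes), and the dashed line is the median of all genes tested, at -0.36, 0.18 and -0.18.

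The size of the MUT difference depended on the scaling of the libraries. The members' median change in MUT against WT was -0.51, beside 0.18 for all genes tested, and -0.98 beside -0.33 with trimmed-mean scaling. It was 0.58 with total-read scaling, beside 1.11 for all genes. The background was taken off in 2 ways, of which the second was added after the data were seen. With total-read scaling after the subtraction the members' median was 0.02 beside 0.28 for all genes, and with the deposited scaling kept it was -1.10 beside -0.78. The members thus lay below the median of all genes by 0.26 to 0.69 under the 6 scalings, whereas the sign of their own median went with the scaling.

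In calls the scalings differed as well. With total-read scaling C1qa was the 1 member called lower in MUT than in WT and Cx3cr1, Fcgr2b and Marco were called higher, beside 2.89% of all genes lower and 38.7% higher. The subtraction with total-read scaling left 0 members called in MUT against WT, beside 3.52% of all genes lower and 14.1% higher. The subtraction on the deposited scaling left 11 members lower and 0 higher, beside 25.3% and 6.70% of all genes. In REG against MUT the members' median was 0.84 beside -0.36 for all genes, and it was above 0 under all 6 scalings, with 0.16 the lowest value under total-read scaling. That scaling gave 7 members higher and 3 lower (Cx3cr1, Marco and Siglec1), beside 3.24% and 37.7% of all genes. The subtraction with total-read scaling gave 4 members higher (C1qa, C1qb, Ctss and Ms4a7) and 0 lower, beside 3.38% and 13.0%. The subtraction on the deposited scaling gave 14 higher and 0 lower, beside 18.7% and 6.75%.

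**Figure D2:**
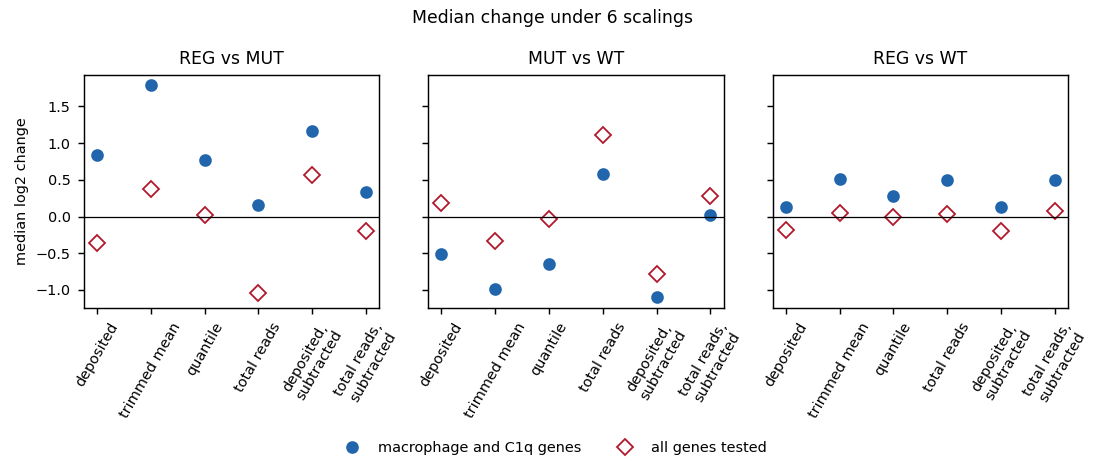
Median log2 change of the tested macrophage and C1q genes (circles) and of all genes tested (diamonds) in REG against MUT, MUT against WT and REG against WT, under the deposited scaling and 5 others, of which 2 have the background subtracted. The members' median in MUT against WT is -0.51 as deposited and 0.58 with total reads (-1.10 and 0.02 with the background subtracted), and in REG against MUT it is above 0 in each.

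As a share of reads the set was largest in REG. Scaled to the total of estimated reads (RPM), the 32 genes summed to 2595, 3108 and 1949 in REG, 1008, 1034 and 1374 in MUT, and 1234, 1047 and 863 in WT. Without Lyz2, which gave the largest part in most libraries, the sum was 1367, 1168 and 1289 RPM in REG, 702, 496 and 986 in MUT, and 838, 886 and 740 in WT. The REG libraries lay above all others on both sums, and MUT and WT overlapped. The reads of the median member were 118, 58.2 and 166 times the background expectation in REG, 3.00, 4.21 and 4.67 times in MUT, and 70.9, 122 and 69.0 times in WT. In all 3 MUT libraries 8 members, among them Timd4, Folr2, Cx3cr1 and Siglec1, stayed under 3 times the background. Beyond the subtraction the part of the background in the differences was not tested.

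**Figure D3:**
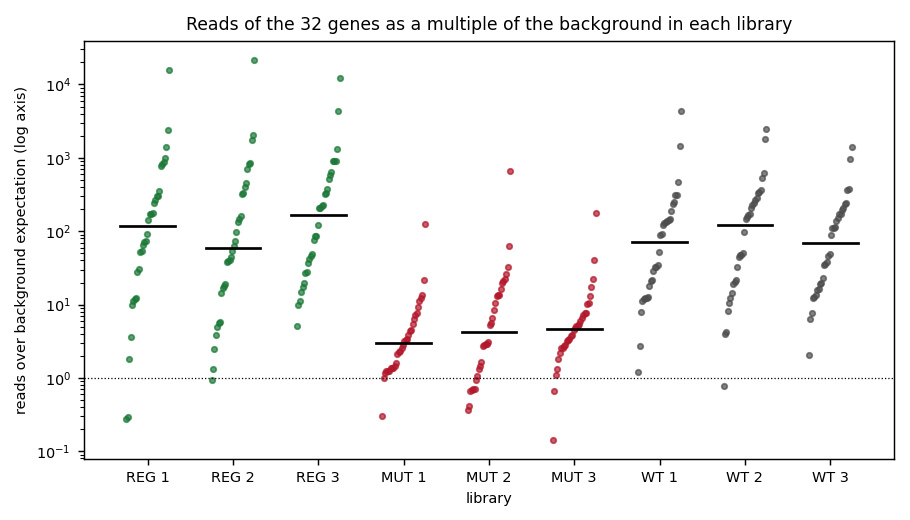
Estimated reads of each of the 32 genes over the number expected from the background density of its library, on a log axis, with 1 point per gene and a bar at the median, for REG, MUT and WT libraries. The medians lie at 58.2 to 166 in REG, 3.00 to 4.67 in MUT and 69.0 to 122 in WT.

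The resident macrophage genes were low in every library and none was called in any comparison. Lyve1, a hyaluronan receptor also found on lymphatic vessels, was at 0.237, 0.392 and 0.950 in REG, 1.31, 0.322 and 3.09 in MUT, and 1.16, 0.323 and 0.746 in WT. Its groups overlapped in each pairing, with a log2 change of 0.59 ± 0.59 (SE) in MUT against WT and -0.91 ± 0.59 in REG against MUT. Of 5 lymphatic endothelial genes, 2 rose (Prox1 and Reln) and 1 fell (Ccl21a) in MUT against WT, and 0 rose and 2 fell in REG against MUT. Of all genes tested, 20.5% rose and 14.6% fell in the first comparison, and 11.8% rose and 24.8% fell in the second. The summed values of the 5 lymphatic genes were 17.8, 11.97 and 17.2 in REG, 42.5, 92.8 and 63.2 in MUT, and 17.8, 21.1 and 24.8 in WT. Lyve1 reads in MUT were 1.35, 0.41 and 3.80 times the background expectation. The part of lymphatic cells in Lyve1 was not tested. Timd4, a phosphatidylserine receptor that captures dying cells, was at 3.50, 0.134 and 0.471 in REG, 0.735, 0.362 and 0.814 in MUT, and 0.794, 0.609 and 1.61 in WT. REG replicate 1 held the highest Timd4 value and REG replicate 2 the lowest, so the REG libraries spanned both other groups. Folr2, a folate receptor, was at 0.0186, 0.0448 and 0.445 in REG, 0.171, 0.299 and 0.0829 in MUT, and 0.609, 0.353 and 0.647 in WT. The MUT values of Folr2 lay below all WT values, with a log2 change of -0.71 ± 0.39 and an adjusted p of 0.18 in limma. Folr2 reached the minimum of 0.367 in 3 libraries only, and 56.9% of its 31-base words also occur in Gm10602, so reads of the 2 genes may have been split.

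All 3 C1q chains fell in MUT against WT and rose in REG against MUT, beside 14.6% and 11.8% of all genes tested. The fall of C1qb, however, changed sign with total-read scaling, with and without background subtraction. C1qa was at 6.11, 16.6 and 11.0 in REG, 1.20, 2.69 and 0.954 in MUT, and 7.83, 9.35 and 8.03 in WT. All MUT values were below all others, with a log2 change of -2.24 ± 0.45 in MUT against WT (limma, adjusted p = 0.0062) and 2.54 ± 0.45 in REG against MUT (adjusted p = 0.0037), and these 2 calls held without any 1 library. C1qb was at 20.8, 20.3 and 10.1 in REG, 2.58, 2.79 and 1.97 in MUT, and 4.89, 5.81 and 5.99 in WT. The 3 groups of C1qb did not overlap in any pairing, and REG was the highest. C1qb rose by 2.57 ± 0.37 in REG against MUT (adjusted p = 0.0019) and fell by 1.08 ± 0.37 in MUT against WT (adjusted p = 0.045). The fall of C1qb in MUT was a weak call: it was lost without any 1 of the 6 MUT and WT libraries, with adjusted p from 0.0827 (without WT replicate 1) to 0.203 (without MUT replicate 3) and values of 0.04 with total-read scaling, 0.10 with that scaling after background subtraction and -1.23 (adjusted p = 0.0665) after subtraction on the deposited scaling. C1qc was at 6.00, 3.30 and 11.2 in REG, 2.11, 2.00 and 2.79 in MUT, and 8.22, 8.40 and 8.49 in WT. MUT was again below both groups, and the log2 change was -1.72 ± 0.43 in MUT against WT (adjusted p = 0.014) and 1.29 ± 0.43 in REG against MUT (adjusted p = 0.038). The first C1qc call was lost without MUT replicate 1 (adjusted p = 0.061), WT replicate 2 (0.0534) or WT replicate 3 (0.0507), and the second without any 1 library but REG replicate 2, with adjusted p from 0.0595 to 0.146.

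The chains did not keep the same proportion. Of the C1q values per kb of exon, C1qb made up 68.0%, 51.4% and 36.2% in REG, 51.4%, 41.5% and 43.4% in MUT, and 27.6%, 28.6% and 31.2% in WT. Every REG and MUT library lay above every WT library, a difference at the smallest p the exact permutation test of 3 against 3 allows (two-sided p = 0.1, adjusted p = 0.283 over 51 comparisons of 17 ratios). C1qc made up 11.1%, 4.69% and 22.7% in REG, 23.7%, 16.7% and 34.6% in MUT, and 26.2%, 23.3% and 24.96% in WT. The REG shares of C1qc were below the WT shares without overlap (exact two-sided permutation p = 0.1, adjusted p = 0.283). The 3 C1q genes share no 31-base word with another gene.

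**Figure D4:**
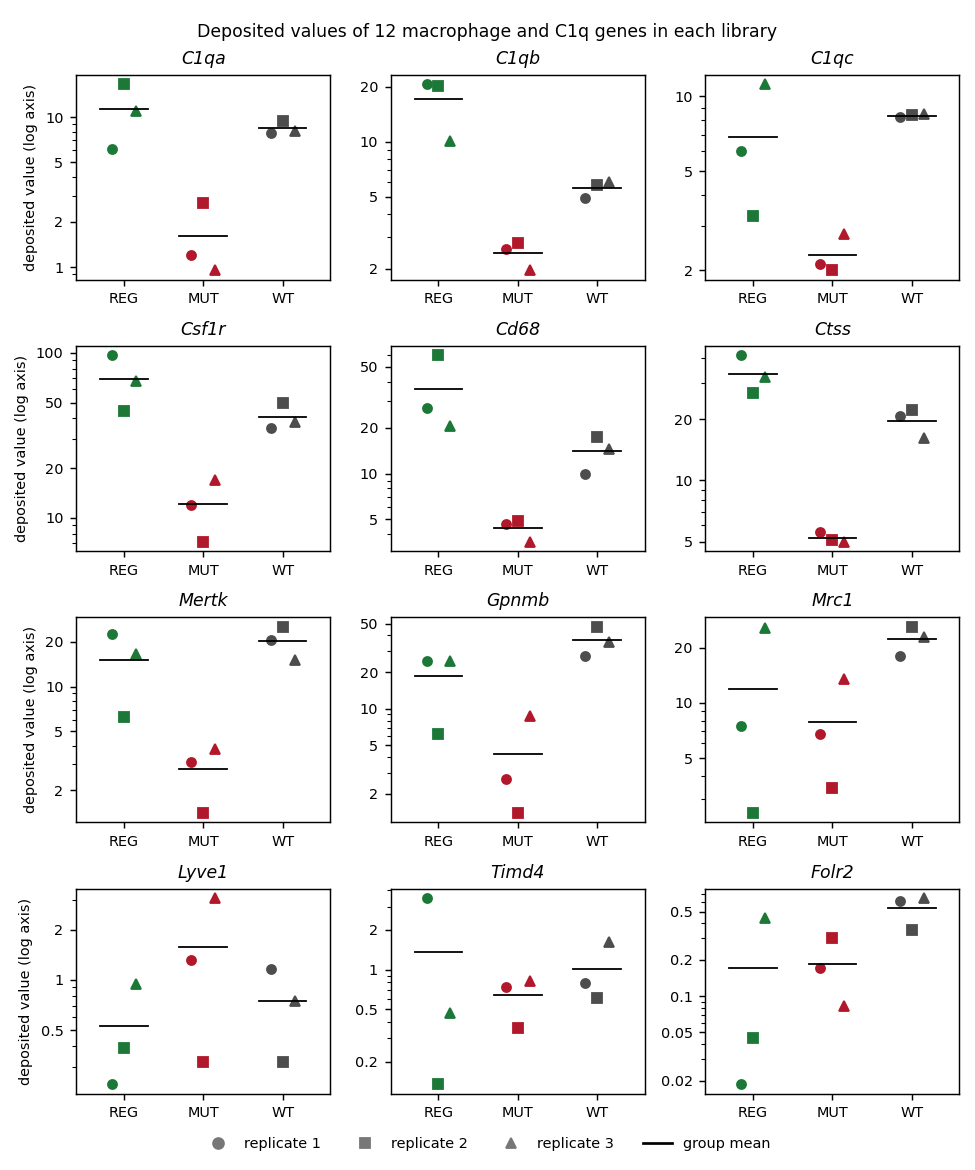
Deposited value of 12 genes in each library on a log axis, for REG, MUT and WT, with a bar at the group mean. On the deposited scale the 3 C1q chains, Csf1r, Cd68, Ctss and Mertk are lower in all MUT libraries than in all REG and WT libraries, while the groups overlap for Lyve1 and Timd4.

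Of the 9 macrophage identity genes, 4 fell in MUT against WT (Csf1r, Cd68, Maf and Laptm5) and 5 rose in REG against MUT (Csf1r, Cd68, Spi1, Laptm5 and Ms4a7). Of all genes tested, 14.6% were called lower in the first comparison and 11.8% higher in the second. With total-read scaling 1 identity gene rose and 0 fell in MUT against WT, beside 38.7% and 2.89% of all genes. In REG against MUT 2 rose and 1 fell under that scaling, beside 3.24% and 37.7%. Csf1r, the receptor for the growth factors Csf1 and Il34, was at 96.8, 44.2 and 67.7 in REG, 11.95, 7.17 and 16.996 in MUT, and 35.04, 49.9 and 38.2 in WT. REG and WT overlapped and MUT was below both, with a log2 change of -1.80 ± 0.43 against WT (limma, adjusted p = 0.012), with 2.51 ± 0.43 for REG against MUT (adjusted p = 0.0032). Csf1r shares 14.6% of its 31-base words with the overlapping gene Hmgxb3. Cd68, a glycoprotein of macrophage lysosomes that osteoclasts also carry, was at 27.0, 59.7 and 20.5 in REG, 4.66, 4.89 and 3.58 in MUT, and 9.99, 17.3 and 14.6 in WT. Its 3 groups did not overlap in any pairing, and its change was -1.57 ± 0.44 in MUT against WT (adjusted p = 0.022) and 2.79 ± 0.44 in REG against MUT (adjusted p = 0.0025). Laptm5, a lysosomal membrane protein of blood cells, was at 24.6, 28.3 and 61.4 in REG, 11.5, 9.38 and 7.63 in MUT, and 37.9, 36.0 and 23.7 in WT. Its MUT values were the lowest 3 of the 9, with -1.72 ± 0.42 against WT (adjusted p = 0.013) and 1.86 ± 0.42 for REG against MUT (adjusted p = 0.009).

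Maf, a transcription factor of mature macrophages that other tissues also use, had another order. It was at 16.5, 18.6 and 34.0 in REG, 10.6, 16.2 and 10.2 in MUT, and 36.1, 51.8 and 39.4 in WT. WT was the highest group without overlap, with a change of -1.77 ± 0.39 in MUT against WT (limma, adjusted p = 0.0085), and REG against MUT missed the threshold at 0.84 ± 0.39 (adjusted p = 0.12). Spi1, which encodes PU.1, was at 17.4, 24.7 and 16.4 in REG, 3.998, 13.0 and 5.76 in MUT, and 7.90, 12.1 and 9.64 in WT, and rose by 1.46 ± 0.45 in REG against MUT (adjusted p = 0.028). MUT and WT overlapped for Spi1. Ms4a7, a membrane protein of macrophages, rose by 1.22 ± 0.39 in REG against MUT (adjusted p = 0.035). The remaining identity genes Adgre1 (F4/80), Cx3cr1 (the fractalkine receptor) and Aif1 (an actin-binding protein) were not called, with changes of -0.30, 0.59 and 0.33 in MUT against WT and 0.67, -1.03 and 0.84 in REG against MUT. Adgre1 was at 12.5, 1.44 and 7.21 in REG, so its 3 REG libraries spanned the MUT and WT values.

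Several identity calls did not hold when single libraries were left out, which also leaves fewer samples. In MUT against WT, Csf1r lost its call without WT replicate 2 (limma, adjusted p = 0.0559) and Maf without MUT replicate 3 (0.0524). Laptm5 lost its call in MUT against WT without MUT replicate 3 (0.0698) or WT replicate 2 (0.0577), and in REG against MUT without MUT replicate 3 (0.0559). Cd68 lost its MUT against WT call without MUT replicate 1 (0.0732), MUT replicate 3 (0.0999), WT replicate 2 (0.0903) or WT replicate 3 (0.0732). Spi1 lost its call in REG against MUT without REG replicate 2 (0.0567), MUT replicate 1 (0.162) or MUT replicate 3 (0.123), and Ms4a7 without any 1 library but REG replicate 3, with adjusted p from 0.0542 to 0.147. The calls of Csf1r and Cd68 in REG against MUT held without any 1 library.

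Among the scavenger, lectin and engulfment receptors the 2 genes called were Mertk and Gpnmb, in both comparisons. Of all genes tested, 14.6% were called lower in MUT against WT and 11.8% higher in REG against MUT. Mertk, a receptor kinase that drives engulfment of dying cells, was at 22.7, 6.28 and 16.5 in REG, 3.09, 1.41 and 3.81 in MUT, and 20.5, 25.4 and 15.2 in WT. MUT was below every other library, at -2.78 ± 0.52 against WT (limma, adjusted p = 0.0046), with 2.22 ± 0.52 in REG against MUT (adjusted p = 0.01), and both calls held without any 1 library. Gpnmb, a membrane glycoprotein of lysosome-rich macrophages and of osteoclasts and osteoblasts, was at 24.6, 6.17 and 24.7 in REG, 2.68, 1.40 and 8.80 in MUT, and 27.0, 47.2 and 35.2 in WT. It had the largest fall of the tested members in MUT against WT, -3.29 ± 0.68 (adjusted p = 0.0068), while REG replicate 2 lay within the MUT range and the REG against MUT change was 2.13 ± 0.68 (adjusted p = 0.034). That second Gpnmb call was lost without any 1 library but REG replicate 2 and MUT replicate 3, with adjusted p from 0.0507 to 0.114. The Mertk and Gpnmb reads were near the background in MUT, at 2.15, 1.64 and 3.16 times its expectation for Mertk and 1.24, 1.08 and 4.87 times for Gpnmb.

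Mrc1, the mannose receptor, was at 7.51, 2.51 and 25.6 in REG, 6.74, 3.43 and 13.5 in MUT, and 18.1, 26.03 and 22.98 in WT. MUT lay below WT without overlap, at -1.64 ± 0.74 (limma, adjusted p = 0.11), and REG replicate 3 stood within the WT range while REG replicates 1 and 2 were below it. Siglec1, a sialic acid receptor, was at 1.53, 0.956 and 4.85 in REG, 2.93, 3.94 and 5.38 in MUT, and 2.87, 4.02 and 4.40 in WT. REG replicates 1 and 2 of Siglec1 were below every other library, and REG replicate 3 was among the highest. Cd163 (the haemoglobin scavenger receptor), Msr1 (a scavenger receptor) and Clec10a (a galactose lectin) were not called, with changes of -0.69, -0.10 and -0.06 in MUT against WT and -0.55, -0.26 and 0.48 in REG against MUT. The untested Vsig4 was at 0.0186, 0.0560 and 0.292 in REG, 0.585, 0.200 and 0.298 in MUT, and 0.0846, 0.0559 and 0.120 in WT.

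Of the 6 Fc receptor and inflammatory sensing genes, 1 rose in MUT against WT and 1 rose in REG against MUT. Beside them, 20.5% and 11.8% of all genes tested were called higher, so these counts are not read as a result about the 6 genes. Marco, a scavenger receptor that binds bacteria, was at 0.0849, 0.806 and 0.202 in REG, 0.793, 1.20 and 1.38 in MUT, and 0.197, 0.238 and 0.410 in WT. It rose by 1.19 ± 0.41 in MUT against WT (limma, adjusted p = 0.048), with -1.13 ± 0.41 in REG against MUT (adjusted p = 0.056). The MUT libraries were above all WT libraries, the MUT reads were 1.22, 3.09 and 2.55 times the background expectation, and it passed the filter in 5 libraries, 3 of them MUT. The Marco call was lost without any 1 of the MUT and WT libraries, with adjusted p from 0.0862 (without WT replicate 3) to 0.188 (without MUT replicate 3). Fcer1g, the signalling chain shared by several Fc receptors, was at 15.5, 9.05 and 14.4 in REG, 3.87, 5.39 and 5.36 in MUT, and 8.80, 5.98 and 6.62 in WT. REG was the highest group and MUT the lowest, without overlap, and Fcer1g rose by 1.33 ± 0.35 in REG against MUT (adjusted p = 0.016), a call lost without MUT replicate 1 (adjusted p = 0.115) or MUT replicate 3 (0.0758). Its change in MUT against WT was -0.51 ± 0.35 (adjusted p = 0.28).

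Fcgr3, a low-affinity activating IgG receptor, was at 13.5, 5.31 and 11.7 in REG, 4.41, 7.17 and 2.89 in MUT, and 6.71, 6.64 and 4.94 in WT. REG and MUT overlapped through REG replicate 2, and the change of 1.01 ± 0.45 missed the threshold (limma, adjusted p = 0.11). Fcgr3 shares 13.4% of its 31-base words with Fcgr2b, the inhibitory IgG receptor near it on chromosome 1, which had no call. Cd14, a co-receptor for bacterial lipopolysaccharide, was at 2.66, 1.52 and 1.55 in REG, 2.47, 0.399 and 2.599 in MUT, and 1.97, 2.31 and 2.74 in WT. The 3 groups of Cd14 overlapped, as did those of Fcgr1, the high-affinity IgG receptor, whose change was -0.27 in MUT against WT and 0.23 in REG against MUT.

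The lysosomal and secreted genes were among the most abundant members per kb of exon in REG. All 3 rose in REG against MUT, beside 11.8% of all genes tested. Ctss, a lysosomal protease that processes antigen, was at 41.2, 26.9 and 32.1 in REG, 5.55, 5.09 and 4.997 in MUT, and 20.7, 22.2 and 16.1 in WT. The groups stood in the order MUT, WT, REG without overlap, with -1.83 ± 0.32 in MUT against WT (limma, adjusted p = 0.0036) and 2.58 ± 0.32 in REG against MUT (adjusted p = 0.0013). The Ctss call in REG against MUT held in all 24 alternatives tried. Apoe, a lipid carrier secreted by macrophages and other cells, was at 112, 86.8 and 169.6 in REG, 15.4, 24.6 and 23.8 in MUT, and 100.5, 99.3 and 65.4 in WT. MUT was below every other library of Apoe, at -2.04 ± 0.39 against WT (adjusted p = 0.0048), with 2.49 ± 0.39 in REG against MUT (adjusted p = 0.0024). Lyz2, the lysozyme of macrophages and neutrophils, was at 450.5, 657 and 294 in REG, 54.3, 158 and 63.9 in MUT, and 183, 84.8 and 59.0 in WT. MUT and WT overlapped for Lyz2 (-0.24 ± 0.56, adjusted p = 0.76, and 1.00 with total-read scaling), and REG lay above both, with 2.43 ± 0.56 against MUT (adjusted p = 0.0093). Lyz2 shares 32.8% of its 31-base words with Lyz1, and the summed values of 10 neutrophil genes also stood highest in REG, over 1352 to 3708, against 374 to 1269 in MUT and 208 to 1046 in WT; their part in Lyz2 was not tested.

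REG against WT gave 0 calls over all genes (0%) in limma, members included. At an unadjusted p under 0.05 there were 2755 genes, and 7 members were among them: C1qb, Cd68, Fcer1g, Ctss and Lyz2 were higher and Maf and Cd163 lower in REG. Of all genes tested, 2.13% were higher and 7.34% lower at that threshold. The largest of these changes were 2.19 ± 0.56 for Lyz2 and 1.49 ± 0.37 for C1qb, and both were called when REG replicate 3 was left out (adjusted p = 0.0482 for Lyz2 and 0.0235 for C1qb), where 5.61% of all genes were called. In the labels the sample numbers of REG replicates 1 and 2 repeat those of WT libraries and that of REG replicate 3 comes after those of the MUT and WT libraries. What these numbers mark is not given, so a difference in handling of REG replicates 1 and 2 and the difference from WT cannot be told apart. Below the WT range lay 14 members in REG replicate 1, 14 in REG replicate 2 and 4 in REG replicate 3. Above it lay 15, 12 and 18. The share of all genes outside the WT range was not counted for single libraries. These counts are therefore not read as a result about the members. Gpnmb and Maf were below the WT range in each REG library. C1qb, Cd68, Aif1, Spi1, Fcer1g, Ctss and Lyz2 were above it in each, so 7 of 31 members were higher without overlap and 2 of 31 were lower, beside 4.03% and 12.1% of all genes tested.

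Set against Csf1r in the same library, a ratio that the scaling cannot change but the background can, Mrc1, Cd163 and Maf were lower in REG. The choice of these ratios was made after the values were seen. Mrc1 over Csf1r, per kb of exon, was 0.0703, 0.0514 and 0.342 in REG, 0.511, 0.434 and 0.721 in MUT, and 0.468, 0.473 and 0.545 in WT. Cd163 over Csf1r was 0.0366, 0.0431 and 0.133 in REG, 0.369, 0.839 and 0.485 in MUT, and 0.279, 0.293 and 0.183 in WT. Maf over Csf1r was 0.120, 0.295 and 0.352 in REG, 0.621, 1.59 and 0.422 in MUT, and 0.721, 0.728 and 0.723 in WT. For all 3 ratios each REG library lay below each MUT and each WT library, at the smallest p the exact permutation test allows (two-sided p = 0.1, adjusted p = 0.283). Mrc1 reads in MUT were 3.21, 2.84 and 7.65 times the background expectation. After subtraction with total-read scaling, Mrc1 and Csf1r were at 7.89 and 21.9 RPM in MUT replicate 2. In REG replicate 3 they were at 57.4 and 152.6 RPM, so its Mrc1 ratio was then not below that of MUT replicate 2. REG stayed below MUT for Cd163 and Maf. Adgre1 over Csf1r overlapped between the groups in each pairing. The C1q chains over Csf1r also overlapped, at 1.68, 4.75 and 2.19 in REG, 2.23, 4.99 and 1.42 in MUT, and 2.68, 2.16 and 2.66 in WT. Osteoclasts also express Csf1r, and the summed values of 12 osteoclast genes ranged over 993 to 1804 in REG, 149 to 358 in MUT and 481 to 925 in WT; their part in these ratios was not tested.

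**Figure D5:**
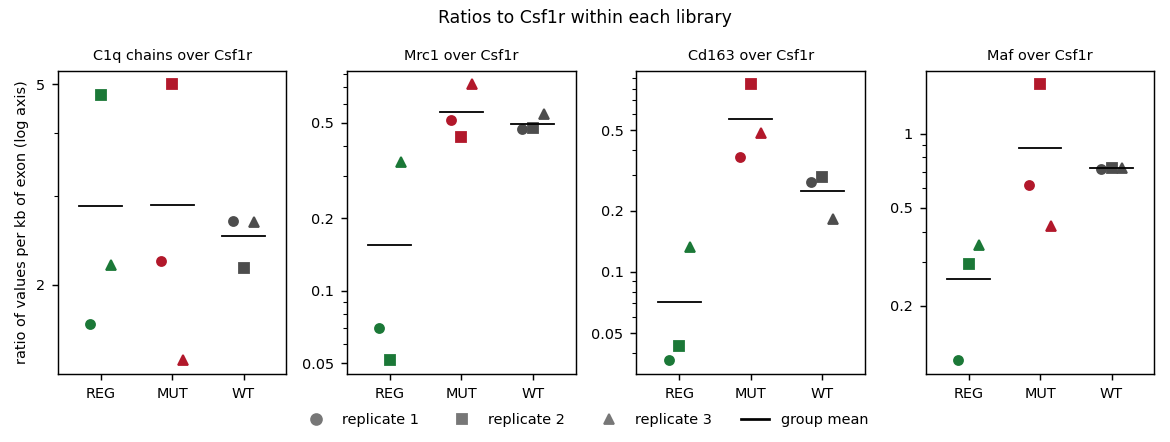
Ratio of the 3 C1q chains together, of Mrc1, of Cd163 and of Maf to Csf1r in each library, from values per kb of exon on a log axis, for REG, MUT and WT with a bar at the group mean. Without background subtraction, the REG libraries lie below all MUT and WT libraries for Mrc1, Cd163 and Maf, and overlap them for the C1q chains.

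The inflammatory macrophage and monocyte genes were counted apart. Of 20 such genes, 2 rose and 1 fell in MUT against WT, and 0 rose and 1 fell in REG against MUT, beside 35.1% and 36.6% of all genes tested called in either direction. With trimmed-mean scaling 0 rose and 1 fell in MUT against WT, beside 9.73% and 23.4% of all genes. In REG against MUT 6 rose and 0 fell under that scaling, beside 25.7% and 11.3%. The cytokine genes Il1b, Tnf and Il6 were not called, with changes of 0.67, -0.02 and -0.51 in MUT against WT and -0.21, -0.27 and 0.36 in REG against MUT. Nlrp3, the sensor of an inflammasome, was at 10.5, 5.97 and 38.9 in REG, 6.24, 5.17 and 4.62 in MUT, and 45.9, 53.0 and 47.8 in WT. All MUT values of Nlrp3 were below all WT values, with -3.12 in limma (adjusted p = 0.0044), and REG replicate 3 stood above the other two. Cd80 and Cd40, co-stimulatory surface proteins, rose in MUT against WT by 1.74 (adjusted p = 0.019) and 1.28 (adjusted p = 0.048), and Cd40 fell by 1.41 in REG against MUT (adjusted p = 0.032). After background subtraction on the deposited scaling, 0 of 19 inflammatory genes tested rose and 2 fell in MUT against WT, beside 6.70% and 25.3% of all genes. With total-read scaling after the subtraction, 1 of 18 rose and 2 fell, beside 14.1% and 3.52%.

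Genes that work with C1q and with Csf1r were counted from lists of the pathways. Of 20 complement genes beside C1q, which include genes of the lectin and alternative pathways, complement receptors and regulators, 3 rose and 5 fell in MUT against WT, beside 20.5% and 14.6% of all genes. In REG against MUT 5 rose and 2 fell, beside 11.8% and 24.8%. With total-read scaling 6 rose and 3 fell in MUT against WT, beside 38.7% and 2.89% of all genes. In REG against MUT 3 rose and 6 fell under that scaling, beside 3.24% and 37.7%. The C1 proteases C1ra and C1s1, which bind to C1q, were lower in MUT than in WT by -4.65 (limma, adjusted p = 0.00074) and -3.96 (adjusted p = 0.0013), and rose in REG against MUT by 4.02 and 3.31 (adjusted p = 0.0011 and 0.0022). C1ra was at 13.4, 34.7 and 28.7 in REG, 1.53, 1.27 and 0.684 in MUT, and 24.98, 53.5 and 37.7 in WT, and its MUT values were the lowest, as for the C1q chains. Masp1, a protease of the lectin pathway, had the opposite signs, with 3.25 in MUT against WT (adjusted p = 0.0019) and -3.24 in REG against MUT (adjusted p = 0.002). Of 26 macrophage growth factor, signalling and transcription genes, 8 fell and 0 rose in MUT against WT, beside 14.6% and 20.5% of all genes. In REG against MUT 14 rose and 0 fell, beside 11.8% and 24.8%. With total-read scaling 6 fell and 0 rose in MUT against WT, beside 2.89% and 38.7%. In REG against MUT 5 rose and 0 fell under that scaling, beside 3.24% and 37.7%. The smallest p-values of this list were those of Cebpb, a transcription factor of myeloid cells, Id3, an inhibitor of transcription factors, and Axl, a receptor kinase related to Mertk. They fell in MUT against WT by 3.11, 2.72 and 2.39 (limma, adjusted p = 0.00086, 0.0014 and 0.0016), and rose in REG against MUT by 2.88, 2.49 and 2.13 (adjusted p = 0.0011, 0.0019 and 0.0024). Csf1, the main ligand of Csf1r, changed by -2.10 (adjusted p = 0.0041) and 2.04 (adjusted p = 0.0044), while its other ligand Il34 was not called (-0.99 and 0.03). Gas6 and Pros1, the bridging ligands of Mertk, fell by 3.76 and 1.91 in MUT against WT (adjusted p = 0.002 and 0.013) and rose by 2.36 and 1.45 in REG against MUT (adjusted p = 0.01 and 0.035).

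Markers of other cells were counted beside all genes. As deposited, 20.5% of all genes were higher and 14.6% lower in MUT against WT, and 11.8% and 24.8% in REG against MUT. Of 12 osteoclast genes 0 rose and 4 fell in MUT against WT, and 8 rose and 0 fell in REG against MUT. Of 10 osteoblast and suture genes 0 rose and 9 fell in MUT against WT, and 6 rose and 0 fell in REG against MUT. With total-read scaling, 1 osteoclast gene rose and 1 fell in MUT against WT and 5 rose in REG against MUT. Of the osteoblast and suture genes, 6 fell in MUT against WT and 5 rose in REG against MUT. Under that scaling 38.7% of all genes were higher and 2.89% lower in MUT against WT, and 3.24% and 37.7% in REG against MUT. Of 5 genes shared by all leukocytes, 0 were called in MUT against WT and 2 rose in REG against MUT, and 0 were called in either with total-read scaling. Ptprc (CD45), the marker common to blood cells, was at 36.1 ± 14.4 in REG, 25.03 ± 9.07 in MUT and 32.6 ± 13.99 in WT (SD, n = 3 each). The summed values of 6 T cell genes were 9.03 to 10.04 in REG, 18.1 to 24.01 in MUT and 6.87 to 9.63 in WT, and those of 7 dendritic cell genes were 8.70 to 12.4 in REG, 14.1 to 17.5 in MUT and 7.88 to 11.4 in WT. On the deposited scaling the sums of the T cell and dendritic cell genes were highest in MUT and that of the osteoclast genes was lowest there. As RPM the osteoclast sums of MUT (899 to 1213) and WT (1042 to 1752) overlapped. After background subtraction with total-read scaling, 3 of 5 T cell genes and 0 of 6 dendritic cell genes tested rose in MUT against WT, beside 14.1% of all genes. The part of these cell types, of depth and, beyond the subtraction, of the background in the macrophage values was not tested.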

How the data were processed

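Total RNA of the coronal suture was sequenced as single-end reads of 75 cycles. The submitters' processing notes name STAR 2.6.1d, the mm10 build and Partek. How reads were counted, with or without strand, and scaled is not stated there. The deposited matrix is a scaled signal per gene by the authors, in which the 75th percentile was 2.76 in every library. The authors' deposited gene table gives a p-value, an FDR and a log2 ratio per pair of groups, with the ratios running WT over MUT, REG over MUT and WT over REG. Matrix columns were tied to genes by the order of that table, checked on all 43644 genes, and 0 sample rows were left unmapped. Estimated reads are the value over the lowest value of the library, minus 1.

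A gene was tested if 3 or more libraries reached 0.367, using limma 3.58.1 in R 4.3.3, on log2(value + 0.367) over all 9 libraries. The p-values are two-sided and adjusted by Benjamini-Hochberg over 29107 genes, and the script was tested on simulated data. The exact permutation test of 3 against 3 cannot go below 0.1. The labels do not say that libraries came from separate animals, so the p-values may reflect technical spread only. Exon lengths and positions are from GENCODE M21. Background is the median read density per kb over 1747 receptor genes. Members and gene lists were chosen with earlier results of these data known. Values in every library are given for the C1q and resident genes, for the 3 members of smallest p of each other role in MUT against WT and in REG against MUT, and for Adgre1, Spi1, Vsig4 and the ratios, picked after their values were seen. Of each other list up to 3 genes of smallest p were to be named; Il1b, Tnf, Il6, Csf1, Il34, Gas6, Pros1 and Ptprc were added for their roles. Python 3.11.15 served for tables and figures, with numpy 2.4.6, pandas 2.3.3, scipy 1.17.1 and matplotlib 3.10.9. Alternatives were other scalings, filters and pseudocounts, limma with trend, the 2 groups alone, a replicate block, background subtraction followed by total-read scaling, subsets of libraries and each library left out; background subtraction with the deposited scaling kept was added after seeing the data.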

Additional observations from a re-analysis of the deposited data

How the results depend on the processing

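The count of members called in MUT against WT was 12 of 31. It came to 4 with quantile scaling (17.8% of all genes called), 4 with total-read scaling (41.5%), 0 after background subtraction with total-read scaling (17.7%) and 2 with MUT replicate 2 as the only MUT library (7.78%). It ranged from 6 (without WT replicate 2) to 13 when single libraries were left out, with 7 without MUT replicate 3. In REG against MUT the count of 14 came to 7 with quantile scaling (14.4% of all genes), 4 after background subtraction with total-read scaling (16.4%), 9 with only the 2 groups compared (22.1%) and 3 with MUT replicate 2 as the only MUT library (6.54%). It was 9 to 15 when single libraries were left out, with 9 without MUT replicate 1 or MUT replicate 3. A lone MUT library leaves fewer samples and is assumed to vary like the REG and WT groups; the members' median was then -0.84 in MUT against WT and 1.14 in REG against MUT, further from 0 than -0.51 and 0.84. For the other settings the cause was not tested. In REG against WT the count of 0 became 2 without REG replicate 3, which is the same as REG replicates 1 and 2 alone, and stayed 0 otherwise. The change of C1qb in MUT against WT was 0.039 with total-read scaling and 0.10 with that scaling after background subtraction, against -1.08. With trimmed-mean scaling, both filters, both pseudocounts, limma with trend and background subtraction on the deposited scaling, which was chosen after seeing the data, the counts were within 1.5 times those reported. Replicate numbers were shared across groups. The deviations of same-numbered libraries correlated at -0.20 to 0.10, and those of other libraries at -0.22 to 0.38. With deviations taken from means of 3 libraries, these values cannot tell whether libraries were paired. The extraction notes mention pairs of samples that no label explains. With the replicate block, 10 members were called in MUT against WT, 13 in REG against MUT and 0 in REG against WT. For the replicate block and the left-out libraries the share of all genes called is not given beside the counts. Whether the members moved with all genes there cannot be read from them. The lower depth of the MUT libraries limits the low members: 3 estimated reads equal a value of 0.399 in MUT replicate 2, above that of Folr2.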
